A study of Mus musculus with 12 samples.

Results

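Pancreatic islets that carry the human islet amyloid polypeptide (hIAPP) transgene were compared with islets that do not, averaged over the presence and absence of the protease BACE2. All 12 arrays of the study entered: 6 with the transgene (3 hIAPP and 3 hIAPP/BACE2-KO) against 6 without it (3 WT and 3 BACE2-KO). The value for a gene was the mean of its difference between hIAPP and WT and its difference between hIAPP/BACE2-KO and BACE2-KO, on the log2 scale, where 1 unit is a doubling. These are called the simple differences, with BACE2 and without it. Of 17097 genes with a probe set of a single symbol, 12825 passed a filter on mean level and were tested. The mice were 12 weeks old and ate standard chow. WT mice had neither change, hIAPP mice carried the transgene, BACE2-KO mice lacked BACE2, and hIAPP/BACE2-KO mice had both. A single strain name, B6;129P2-Bace2tm1Bdes/J, is given for all groups. The sources used here give neither the promoter that drives the transgene nor whether islets of several mice were joined. The p-values therefore measure the spread between these arrays, which may be technical. Genetic background bred along with the transgene and the transgene itself cannot be told apart.

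Islet amyloid polypeptide is a hormone that beta cells store and release with insulin. The human form assembles into amyloid fibrils, which deposit in the islets of people with type 2 diabetes, whereas the mouse form does not, so mice are given the human gene to study it. Islet macrophages take up amyloid, complement and apolipoproteins are found in many amyloid deposits, and beta cells under strain can lose identity genes. BACE2 is a membrane-anchored aspartyl protease found in beta cells. The averaged comparison asks which transcripts differed with the transgene on the mean of both simple differences. A transcript that differed in only a single state of BACE2 can pass it too.

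Of the genes tested 1, Sema5a (0.0078%), passed at an adjusted p under 0.05 (limma, Benjamini-Hochberg adjustment over all of them). It lies head to head with Snhg18, a noncoding host gene of a small nucleolar RNA, on chromosome 15. The starts of the genes are 151 bases apart in RefSeq (GRCm38.p6), on opposite strands, so the sequence between them belongs to the promoters of both. It is shown because these neighbours were the 2 genes with the smallest p-values. The window runs from 250 bases before the Sema5a start to 50 bases after it, at chr15:32244563-32244862 on the plus strand. Capitals mark the 150 bases between the starts.
Sema5a promoter window: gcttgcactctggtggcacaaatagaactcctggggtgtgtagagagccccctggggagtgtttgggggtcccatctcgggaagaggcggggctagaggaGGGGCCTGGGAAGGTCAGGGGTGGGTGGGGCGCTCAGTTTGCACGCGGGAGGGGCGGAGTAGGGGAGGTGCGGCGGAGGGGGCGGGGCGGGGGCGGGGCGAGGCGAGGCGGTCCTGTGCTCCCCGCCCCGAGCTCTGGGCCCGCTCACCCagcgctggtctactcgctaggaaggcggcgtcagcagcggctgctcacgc
The window is 71.3% G or C, a share that 7.78% of 32817 mouse promoter windows of this length reach. It holds 23 CG dinucleotides, a number reached by 21.5% of windows. The motif GGGCGG, read on both strands, occurs 5 times, all between the starts, and 35.6% of all windows hold it. TATAAA (13.6% of windows), CCAAT (37.4%), CACGTG (7.15%) and TGACGTCA (1.79%) were not found in it on either strand. Starts facing away from each other within 300 bases occur for 9.42% of 26994 genes in the RefSeq table.

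Sema5a encodes a membrane-bound semaphorin that guides growing axons. Its level was 3.50, 3.62 and 3.43 in the WT arrays and 8.61, 8.49 and 7.47 in the hIAPP arrays. It was 3.62, 3.69 and 4.79 in the BACE2-KO arrays and 3.70, 3.55 and 3.55 in the hIAPP/BACE2-KO arrays. The hIAPP arrays alone were high, and the hIAPP/BACE2-KO arrays lay among those without the transgene, so the arms of 6 arrays overlapped. The averaged difference of Sema5a was 2.12 (SE 0.224, 95% interval 1.63 to 2.61, adjusted p = 0.00592 by limma). It is the mean of 4.67 between hIAPP and WT and -0.43 between hIAPP/BACE2-KO and BACE2-KO, and describes neither. The second difference minus the first was -5.11 (SE 0.448, adjusted p = 0.000722 by limma), and Sema5a was also the single gene called for this interaction. In a fit without an interaction term the averaged difference stayed at 2.12 and was no longer called (adjusted p = 0.591, limma). With the mean macrophage marker level as a covariate Sema5a stood at 2.17 and was not called either (adjusted p = 0.119, limma). Levels near 3.43, the filter on mean level, are at the bottom of the scale, so the fold is not resolved in the low groups.

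A second Sema5a probe set showed the same groups. On it the hIAPP arrays read 8.29, 8.27 and 7.12, the other 9 arrays lay between 2.85 and 3.73, and the averaged difference was 2.21. The third read at most 4.27 on any array, with an averaged difference of 0.40, and the fourth gave 0.06. Snhg18 stood at 6.12, 6.33 and 6.23 in WT and at 8.88, 8.51 and 7.72 in hIAPP arrays. It read 6.22, 6.09 and 6.52 in BACE2-KO and 5.97, 6.11 and 6.25 in hIAPP/BACE2-KO arrays. Again the 3 hIAPP arrays were the high ones, and hIAPP replicate 3 was the lowest of them for both genes. The averaged difference of Snhg18 was 0.99 (SE 0.164, adjusted p = 0.22 by limma) and was not called; without hIAPP replicate 3 it was 1.15 and called (adjusted p = 0.0026). Its difference between hIAPP and WT, 2.14, did pass the test (adjusted p = 0.00393, limma).

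The 10 tested genes on each side of this pair were read as neighbours. None of the 20 was called, and their averaged differences ran from -0.50 to 0.10. Of the 20, 3 had an unadjusted p under 0.05, against 7.59% of all genes. These were Ctnnd2 (-0.32, and -0.19 without hIAPP/BACE2-KO replicate 1), which encodes delta-catenin, Tspyl5 (-0.34) and Laptm4b (-0.13), which encodes a lysosomal membrane protein. The lowest value belonged to Matn2, a matrix protein gene, at -0.50 (-0.32 without BACE2-KO replicate 3), made up of -1.02 in hIAPP against WT and 0.02 in hIAPP/BACE2-KO against BACE2-KO. The high values in hIAPP against WT were found at Sema5a and Snhg18, and not at the tested genes beside them. Whether the window printed above has a part in this was not tested.

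**Figure D1:**
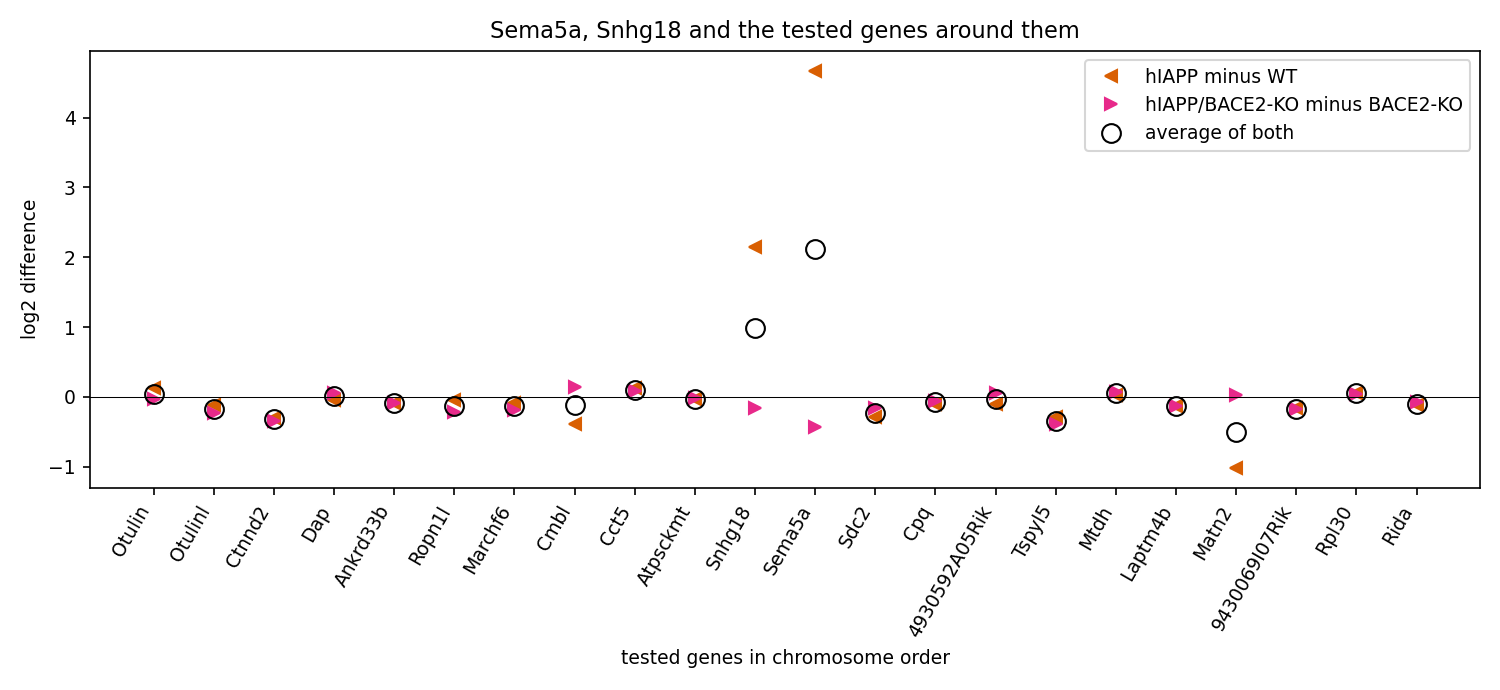
Log2 differences (vertical axis) of Sema5a, Snhg18 and the 10 tested genes on each side in chromosome order, for both simple differences and their average. Sema5a (4.67) and Snhg18 (2.14) stand high in hIAPP minus WT; the averaged differences of the 20 neighbours lie between -0.50 and 0.10.

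Over all genes the averaged differences were small. The median was -0.02, the median 95% interval reached 0.216 to each side, 189 genes differed by more than 0.5 and 12 by more than 1. Of all genes, 973 (7.59%) had an unadjusted p under 0.05, 393 higher (3.06%) and 580 lower (4.52%), so 40.4% of them were higher. That split depended on the scaling: 51.1% were higher after a further quantile normalization, 52% after centring each array on its median and 51.9% without hIAPP replicate 2. The simple differences gave 580 genes with such a p in hIAPP against WT and 569 (4.44%) in hIAPP/BACE2-KO against BACE2-KO, where 0 genes were called and the smallest adjusted p was 0.962 (limma). The interaction gave 308 (2.4%). The simple differences share no array. Across genes, which are not independent replicates, they correlated with a Pearson r of 0.252 and a Spearman rho of 0.277, and 60.6% of genes had the same sign in both.

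**Figure D2:**
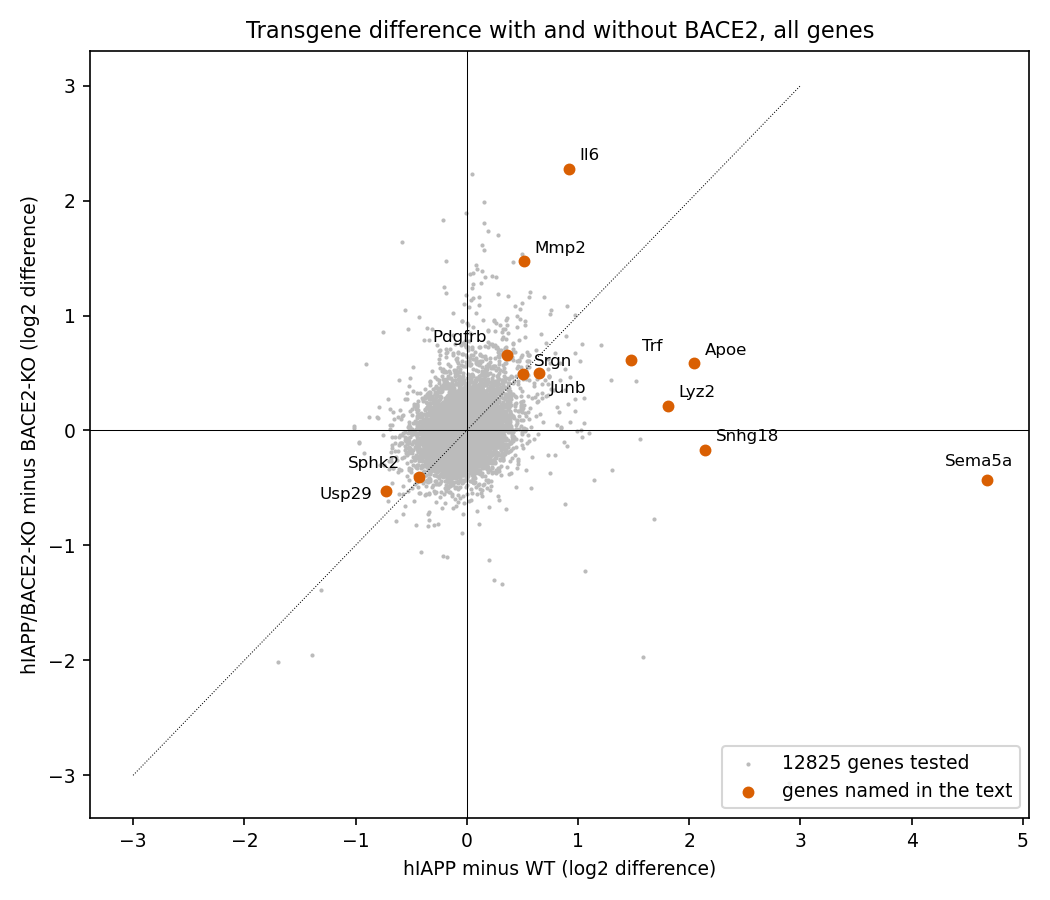
Each point is 1 of the 12825 genes tested, with its log2 difference between hIAPP and WT (horizontal) and between hIAPP/BACE2-KO and BACE2-KO (vertical). Sema5a and Snhg18 lie far out on the horizontal axis alone, Apoe, Lyz2 and Trf are larger on it than on the vertical axis, Il6 and Mmp2 are larger on the vertical, and Srgn, Junb, Usp29 and Sphk2 lie near the dotted line of equal differences.

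The genes that differed alike with and without BACE2 were sought by the larger of their 2 p-values. With the same sign in both, 34 genes (0.265%) were under an unadjusted p of 0.05 in each comparison, 13 higher and 21 lower, and 2 (0.0156%) with opposite signs. In 37 genes (0.288%) the arms of 6 arrays did not overlap, with 9 genes higher (0.0702%) and 28 lower (0.218%) with the transgene. None of these genes was called.

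Srgn encodes serglycin, the proteoglycan that packs the granules of blood cells and is also made in endothelium. It read 8.59, 8.84 and 8.97 in WT and 9.42, 9.22 and 9.29 in hIAPP arrays. In BACE2-KO arrays it read 8.72, 8.66 and 9.03, and in hIAPP/BACE2-KO arrays 9.22, 9.41 and 9.25. All 6 arrays with the transgene lay above all 6 without it. The averaged difference was 0.50 (SE 0.083, adjusted p = 0.22 by limma), made up of 0.51 with BACE2 and 0.49 without it. With the macrophage marker level as a covariate Srgn stood at 0.46.

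Usp29, an imprinted gene for a ubiquitin-specific protease, read 5.50, 5.34 and 5.18 in WT and 4.55, 4.34 and 4.96 in hIAPP arrays. It read 5.32, 5.27 and 4.99 in BACE2-KO and 4.89, 4.40 and 4.72 in hIAPP/BACE2-KO arrays. Here all 6 arrays with the transgene lay below the others, the nearest at 4.96 against 4.99, and the averaged difference was -0.62 (SE 0.132, adjusted p = 0.644 by limma). Sphk2 encodes a sphingosine kinase, an enzyme that makes a lipid signal. Its level ran from 5.95 to 6.30 in the arrays with the transgene and from 6.46 to 6.71 in those without, a difference of -0.42 with simple differences of -0.43 and -0.40. Srgn, Usp29 and Sphk2 were among the 5 genes lowest by the larger p. The rest of these 5 were Mfsd13a, a member of the major facilitator transporter family (-0.47, arms apart), and Synj1 (-0.26, arms overlapping). Synj1 encodes the phosphoinositide phosphatase synaptojanin, which acts in vesicle recycling. Pcdha1, a clustered protocadherin (-0.38), and Chic1, a palmitoylated membrane protein gene (-0.25), had arms that did not overlap, as Mfsd13a did.

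The remaining genes among the 20 with the smallest p all had an adjusted p of 0.644 (limma). Higher with the transgene were Myh9, nonmuscle myosin heavy chain (0.29), and Nav3, a neuron navigator gene (0.41). So was Pdgfrb, the platelet-derived growth factor receptor of pericytes and stellate cells (0.51). Lhfp was higher at 0.55, from simple differences of 0.14 with BACE2 and 0.96 without it. Junb, a subunit of the AP-1 transcription factor, was also higher at 0.58, as was Trf, the iron carrier transferrin, at 1.05. Lower were Ap1s2, a clathrin adaptor subunit (-0.32), and Tmem175, a lysosomal ion channel (-0.35). Lins1 was lower at -0.41, from -0.67 with BACE2 and -0.15 without it. Pdgfrb read from 4.58 to 5.32 with the transgene and from 4.29 to 4.62 without it, so its arms overlapped by a single low array, hIAPP replicate 2.

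Apoe encodes the apolipoprotein that is a frequent companion of amyloid. It read 6.87, 6.85 and 6.73 in WT and 9.33, 8.73 and 8.53 in hIAPP arrays. In BACE2-KO arrays it read 6.29, 7.70 and 7.62, and in hIAPP/BACE2-KO arrays 6.98, 8.66 and 7.72. The hIAPP arrays stood clear of WT, while the arrays without BACE2 overlapped, and the averaged difference was 1.32 (SE 0.289, adjusted p = 0.644 by limma) from simple differences of 2.05 and 0.58. Lyz2, a lysozyme gene of macrophages and granulocytes, followed the same arrays. It read 6.61, 6.73 and 6.71 in WT, 8.76, 8.25 and 8.47 in hIAPP, 6.54, 7.10 and 7.18 in BACE2-KO and 6.23, 8.01 and 7.23 in hIAPP/BACE2-KO arrays. Its averaged difference was 1.01 (SE 0.236, adjusted p = 0.644 by limma). Without hIAPP/BACE2-KO replicate 1, the array with the lowest Lyz2, it was 1.25 and called (adjusted p = 0.0449). With the macrophage marker level as a covariate Apoe stood at 0.71 and Lyz2 at 0.47. Lyz2 is itself part of that marker mean, so part of its fall was fixed in advance.

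**Figure D3:**
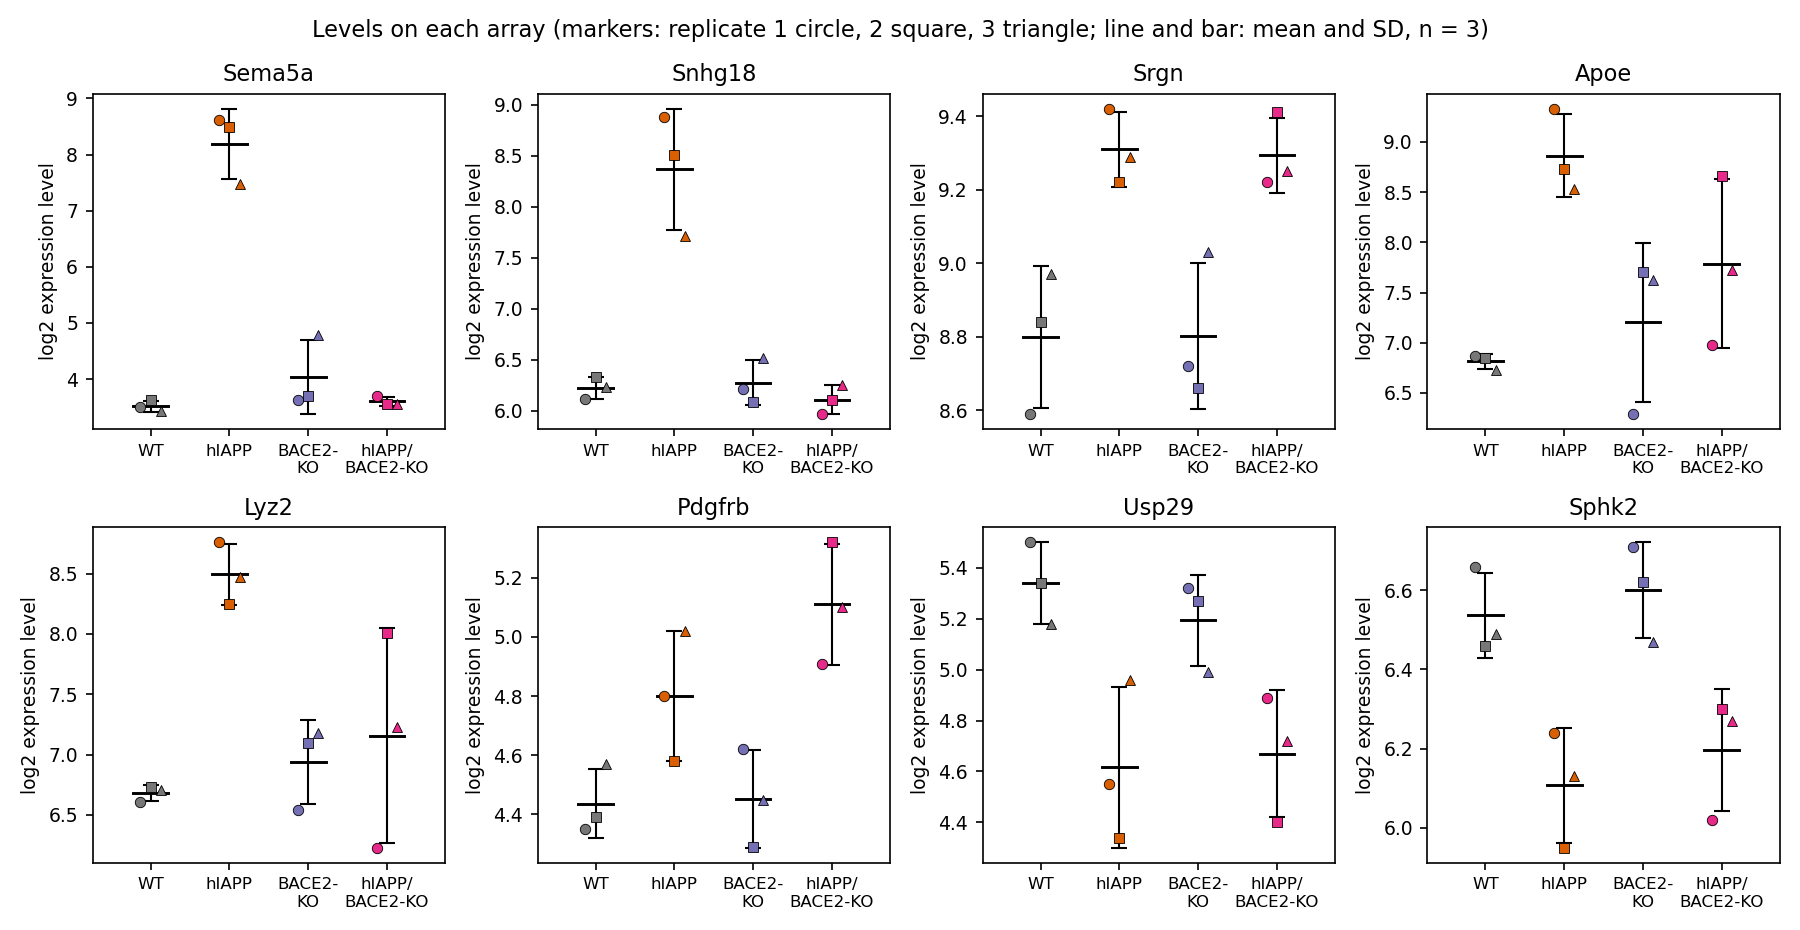
Log2 level of 8 genes on each of the 12 arrays by group, with the group mean and SD (n = 3); the vertical axes differ and do not start at 0. Sema5a and Snhg18 are high in the hIAPP arrays alone, Apoe and Lyz2 most in those, and Pdgfrb overlaps by a single array. Srgn lies higher, and Usp29 and Sphk2 lower, in all 6 arrays with the transgene than in the 6 without it.

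The genes were then read by 38 lists, without a test of the lists. Each count of genes higher stands beside 42.1% of all genes higher and a median of -0.02 over all genes. Each count with an unadjusted p under 0.05 stands beside 7.59% of all genes. No member of any list was called apart from Sema5a. Each list with a median between -0.07 and 0.11 moved by over 1.5 times when single arrays were left out, several of them across 0. Macrophage and myeloid markers were higher in 21 of 23 tested members, with a median of 0.46 (0.63 between hIAPP and WT, 0.22 between hIAPP/BACE2-KO and BACE2-KO). Of them 6 had an unadjusted p under 0.05, against 7.59% of all genes. Besides Lyz2, the members with the smallest p were Ctss, Cd53 and Laptm5. Cd53, a tetraspanin of leukocytes, stood at 0.87, and Laptm5, a lysosomal protein of blood cells, at 0.57. Ctss, the cathepsin of antigen-presenting cells, ran from 8.15 to 9.59 with and from 7.88 to 8.65 without the transgene. The members lower with it were Csf1r, the receptor on which macrophages depend (-0.20, with levels from 4.27 to 4.95 over all arrays), and Adgre1, the F4/80 antigen (-0.07, and 0.01 without BACE2-KO replicate 1), while Cd68 stood at 0.33. The mean level of the list ran from 5.46 to 6.52 with and from 5.51 to 5.93 without the transgene. The lowest and one of the highest arrays, hIAPP/BACE2-KO replicates 1 and 2, belonged to the same group, and without replicate 2 the median was 0.30. In such bulk samples more cells of a type and more RNA per cell cannot be told apart.

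Complement and phagocytosis genes, many of them made by macrophages, were higher in 16 of 16, with a median of 0.35 (0.20 without hIAPP/BACE2-KO replicate 2). Fcgr3, a receptor for antibody-coated particles, stood at 0.73, C1qb, a chain of the first complement component, at 0.67, the scavenger receptor gene Msr1 at 0.50 (0.31 without hIAPP replicate 1) and the engulfment receptor gene Mertk at 0.43. Without hIAPP/BACE2-KO replicate 2 Fcgr3 was 0.47 and C1qb 0.43. With the macrophage marker level as a covariate the median of the complement list was -0.0052. The covariate list itself differed with the transgene (median 0.46), so the covariate also takes up transgene difference, and the cause of the fall was not tested. Lysosomal genes had a median of -0.05 with 11 of 25 higher, but all 5 with an unadjusted p under 0.05 (20%, against 7.59% of all genes) were higher. These were the cathepsins Ctsz (0.36), Ctsh and Ctsb (0.16), the protease legumain Lgmn (0.28) and the sorting receptor Scarb2 (0.19). Ctsh ran from 6.66 to 7.55 with and from 5.97 to 6.64 without the transgene, so its arms did not overlap, and stood at 0.26 with that covariate. Lymphocyte markers had a median of 0.10 with 9 of 9 higher, but 0.14 with BACE2 and -0.03, with 4 of 9 higher, without it. Their median was 0.03 without WT replicate 3, 0.05 without BACE2-KO replicate 3 and 0.07 without hIAPP/BACE2-KO replicate 1. The median was 0.07 for MHC class I and antigen presentation genes (-0.02 without hIAPP replicate 1) and 0.08 for MHC class II genes (-0.07 without hIAPP replicate 3).

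Stellate cell and fibroblast markers were higher in 15 of 16, with a median of 0.47, 0.28 with BACE2 and 0.52 without it. Of them 8 (50%) had an unadjusted p under 0.05, against 7.59% of all genes. Postn, the matrix protein periostin of activated fibroblasts, ran from 5.85 to 6.87 with and from 4.61 to 6.09 without the transgene, a difference of 0.86. Vim, the intermediate filament vimentin, differed by 0.46, and Mfap5, a microfibril protein, by 0.99 (0.55 without hIAPP/BACE2-KO replicate 2). Extracellular matrix genes were higher in 19 of 21 with a median of 0.34 (0.17 without that array). Their median was 0.12 with BACE2 and 0.49 without it. Mmp2, a gelatinase, stood at 0.99 (0.66 without that array), the fibrillar collagen Col5a1 at 0.53 (0.34 without WT replicate 3) and the collagen cross-linking enzyme Loxl1 at 0.48 (0.31 without hIAPP/BACE2-KO replicate 2). The stellate list read 7.12 in hIAPP/BACE2-KO replicate 2 and between 6.16 and 6.50 in the other arrays with the transgene, against 5.84 to 6.43 without it. With the macrophage level as a covariate, which itself differed with the transgene, the medians were 0.20 and 0.08, and the cause of the fall was not tested. Endothelial markers had a median of 0.07, duct cell markers 0.06 and Schwann cell and neural markers 0.04, with no member under an unadjusted p of 0.05 in these 3 lists.

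**Figure D4:**
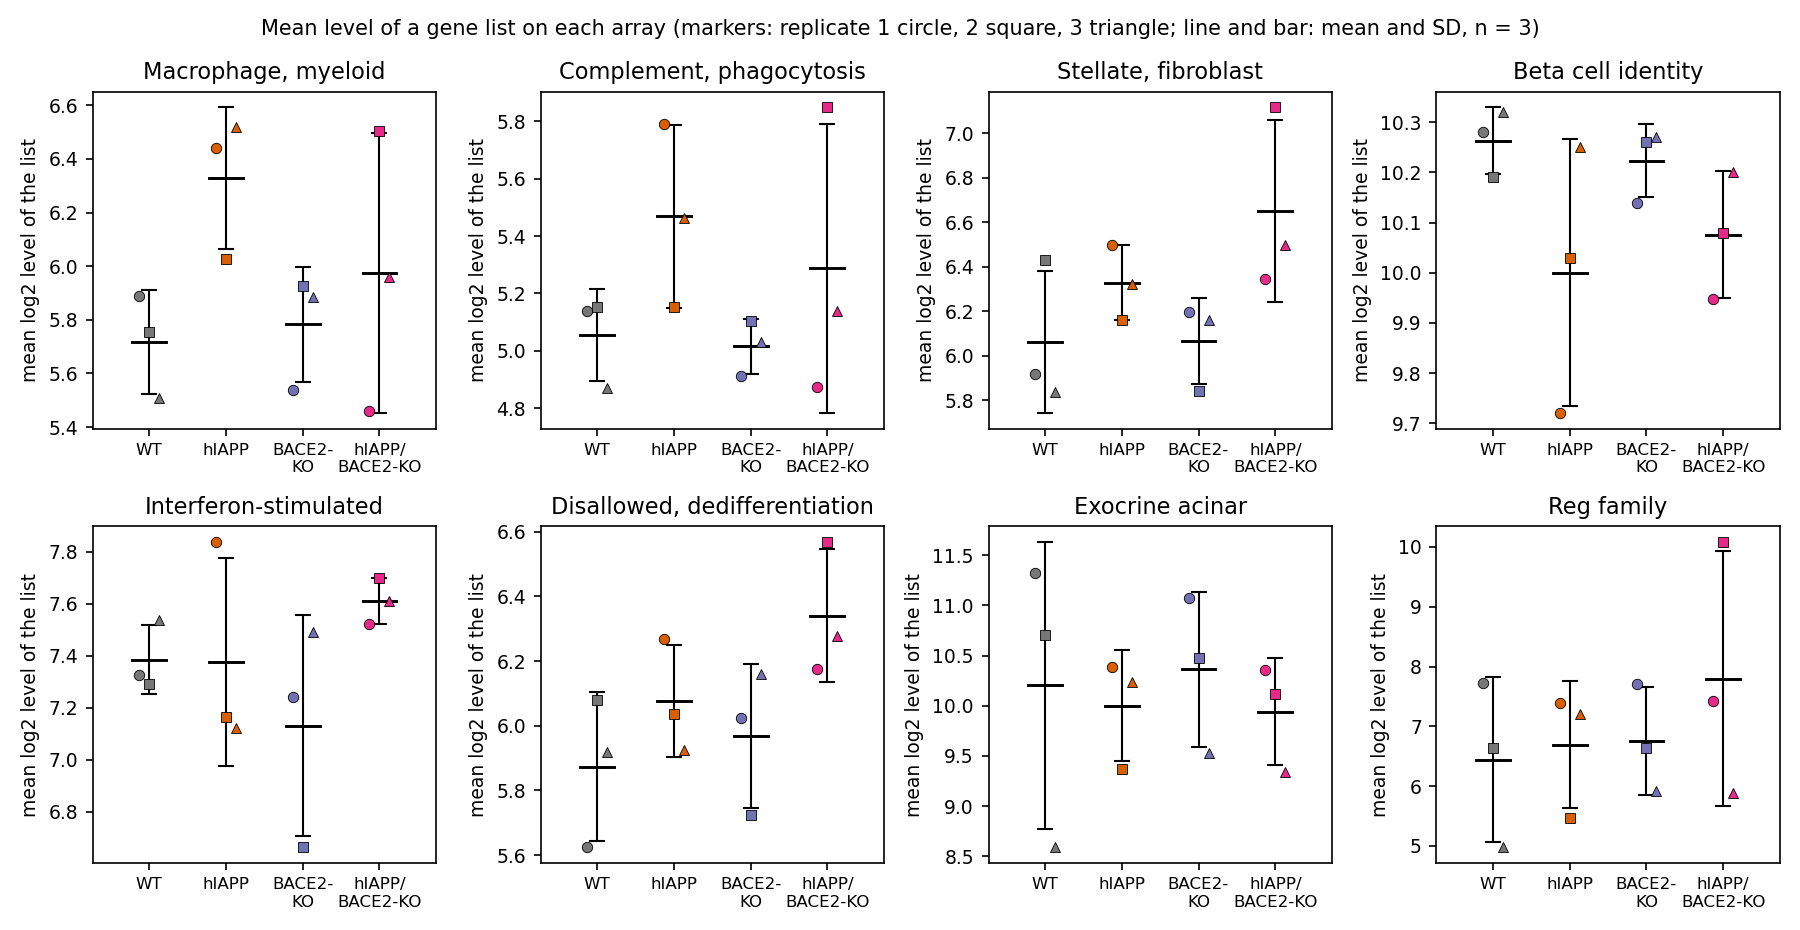
Mean log2 level of 8 gene lists on each of the 12 arrays by group, with the group mean and SD (n = 3); the vertical axes differ and do not start at 0. hIAPP/BACE2-KO replicate 2 stands high in the stellate (7.12) and Reg (10.1) lists, and the acinar list spans the levels of all other arrays within WT alone (8.59 to 11.3).

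Beta cell identity genes were lower in 16 of 18, with a median of -0.23, -0.27 with BACE2 and -0.16 without it. Of them 7 (38.9%) had an unadjusted p under 0.05, all lower, against 7.59% of all genes. Gipr, the receptor for an incretin hormone, differed by -0.52, Slc2a2, the glucose transporter GLUT2, by -0.43, Slc30a8, the zinc transporter of insulin granules, by -0.28, and Gjd2, the gap junction protein that couples beta cells, by -0.23 (its adjusted p was 0.644). Slc2a2 read 10.25 in hIAPP replicate 1, between 10.93 and 11.44 in the other arrays with the transgene and between 11.18 and 11.66 without it. Without that array it stood at -0.28 and the median of the list at -0.12; without hIAPP/BACE2-KO replicate 1 that median was -0.15. The mean of the list ran from 9.72 to 10.25 with and from 10.14 to 10.32 without the transgene. With the macrophage level as a covariate the median was -0.23, as without it. Prohormone processing and granule genes were lower in 17 of 22 with a median of -0.06. Sytl4, the granule docking protein granuphilin, stood at -0.33, Cadps, a priming factor for exocytosis, at -0.22 (-0.14 without hIAPP replicate 1) and Syt7, a calcium sensor, at -0.18.

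Genes that beta cells normally keep silent or that mark dedifferentiation were higher in 14 of 14, with a median of 0.24 made up of 0.11 with BACE2 and 0.41 without it. Without hIAPP replicate 1 the median was 0.15. Aldh1a3, a retinaldehyde dehydrogenase seen in failing beta cells, stood at 0.66 (0.40 without hIAPP/BACE2-KO replicate 2), and Hk2, a high-affinity hexokinase, at 0.60. Igfbp4, an insulin-like growth factor binding protein, differed by 0.52 and Oat, ornithine aminotransferase, by 0.38. With the macrophage level as a covariate the median was 0.21. Several genes of this list are expressed in stellate and duct cells too, whose part in its values was not tested. Alpha cell markers had a median of 0.02, with 5 of 10 higher. The cationic amino acid transporter Slc7a2 stood at -0.31 and the transcription factor Pou3f4 at 0.51 (0.27 without hIAPP/BACE2-KO replicate 3). Delta, PP and epsilon cell markers were lower in 9 of 9 with a median of -0.06, which was -0.22 without BACE2-KO replicate 1, -0.13 without hIAPP/BACE2-KO replicate 3, -0.10 without hIAPP replicate 2, -0.04 without hIAPP replicate 1 and -0.03 without WT replicate 1.

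Interferon-stimulated genes were higher in 23 of 27, with a median of 0.24. It was 0.02 between hIAPP and WT and 0.42 between hIAPP/BACE2-KO and BACE2-KO, and that difference was not tested. BACE2-KO replicate 2 read 6.66 as the mean of the list against 7.24 to 7.54 in the other arrays without the transgene; without it the median was 0.07, and without hIAPP replicate 1 it was 0.10. Oas2, an antiviral synthetase gene, stood at 0.59 with simple differences of 0.04 and 1.13, Ifitm3, a restriction factor, at 0.58 and the guanylate-binding protein gene Gbp3 at 0.50 (0.29 without hIAPP replicate 1). Xaf1, a pro-apoptotic interferon target, stood at 0.80 on its brightest probe set and at -0.25 as the mean of its probe sets. Inflammatory and NF-kB genes were higher in 28 of 30 with a median of 0.18, which was 0.065 with BACE2 and 0.31 without it. The averaged median was 0.12 without WT replicate 3, 0.09 without hIAPP replicate 1 and 0.30 without hIAPP replicate 2. The cytokine Il6 had the largest difference, 1.60 (SE 0.521, adjusted p = 0.644 by limma). It ran from 6.71 to 9.74 with and from 4.90 to 7.79 without the transgene, so the arms overlapped over a wide range. The cytokine signalling inhibitor Socs3 stood at 0.59, the NF-kB regulator Bcl3 at 0.44 and the inflammasome sensor Nlrp3 at 0.27. Immediate early genes, which respond to islet isolation as well, were higher in 17 of 20 with a median of 0.17 (0.03 without hIAPP/BACE2-KO replicate 2), with Jun at 0.28 beside Junb.

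The stress lists had medians between -0.07 and 0.07. In the unfolded protein response, genes of the PERK-ATF4 arm were higher in 15 of 25, with a median of 0.03. Atf3, a stress transcription factor, stood at 0.30 and Cebpb at 0.17 (0.08 without hIAPP/BACE2-KO replicate 2). Chaperones of the ATF6 and IRE1 arms had a median of -0.02 with 10 of 24 higher, and none had an unadjusted p under 0.05. Edem1, which directs misfolded proteins to degradation, stood at 0.18 (0.11 without WT replicate 1) and the co-chaperone Dnajb9 at -0.12 (-0.08 without hIAPP replicate 1). Heat shock proteins had a median of -0.07 with 5 of 16 higher, the co-chaperone Chordc1 standing at -0.14 with and without BACE2 and the small heat shock protein Hspb1 at -0.35 (-0.21 without BACE2-KO replicate 1). Oxidative stress and NRF2 target genes stood at a median of 0.065 (11 of 19 higher), apoptosis and p53 targets at 0.05 (15 of 20 higher, Pmaip1 at 0.60 and the initiator caspase Casp8 at 0.17) and autophagy genes at -0.05.

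Of 16 amyloid-associated genes 9 were higher, with a median of 0.04. Beside Apoe, the matrix proteins biglycan (Bgn) and vitronectin (Vtn) stood at 0.46 (0.29 without hIAPP/BACE2-KO replicate 2) and 0.38, and App, the precursor of Alzheimer amyloid, at -0.16. Amyloid-degrading proteases had a median of 0.01 with 4 of 8 higher. Ide, the insulin-degrading enzyme that also cleaves islet amyloid polypeptide, stood at -0.08 (-0.05 without hIAPP/BACE2-KO replicate 1). The membrane metalloprotease Mmp14 stood at 0.27, at 0.12 without hIAPP/BACE2-KO replicate 2 and at 0.13 without BACE2-KO replicate 2. Secretase genes had a median of 0.05; Adam10, an alpha-secretase, stood at 0.22, Psenen, a gamma-secretase subunit, at 0.05 and Bace1 at -0.06, the last 2 running from 0.02 to 0.07 and from -0.11 to -0.03 with single arrays left out.

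Glycolysis and hypoxia genes were higher in 18 of 20 with a median of 0.24 (0.12 without WT replicate 1). Of them 5 (25%) had an unadjusted p under 0.05, against 7.59% of all genes. Pfkfb3, which makes the activator of phosphofructokinase, stood at 0.43 (0.29 without hIAPP replicate 1), Ankrd37, a hypoxia target, at 0.36 and Ddit4, an mTOR inhibitor, at 0.31. Cholesterol and fatty acid synthesis genes had a median of 0.11, with Cyp51 and Fdft1, enzymes of the sterol pathway, at 0.28 each (Cyp51 0.16 without WT replicate 1). Ribosomal protein genes were higher in 17 of 19 by a median of only 0.05, with Rps14 at 0.12 (0.08 without hIAPP replicate 1). Oxidative phosphorylation subunits had a median of 0.04 and cell cycle genes -0.04, with the mitotic kinase Plk1 at -0.24. Semaphorin and plexin genes had a median of -0.00083 with 13 of 26 higher, and of 0.01 after a further quantile normalization or median centring. After Sema5a the smallest p among them was that of Sema4a, a semaphorin of immune cells, at 0.31.

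Exocrine acinar markers, which report digestive tissue left on isolated islets, were lower in 16 of 17 with a median of -0.30. Their mean level ran from 9.34 to 10.4 with and from 8.59 to 11.3 without the transgene, so the second range held the first. The median was -0.07 without WT replicate 1 and -0.71 without WT replicate 3. It was -0.16 without WT replicate 2 or hIAPP replicate 2, -0.18 without BACE2-KO replicate 1, -0.51 without BACE2-KO replicate 3 and -0.45 without hIAPP/BACE2-KO replicate 1. Ctrl, a chymotrypsin-like protease, stood at -0.64, Cpa1, carboxypeptidase A1, at -0.59, and no member had an unadjusted p under 0.05. Without WT replicate 1 Ctrl and Cpa1 stood at -0.38 and -0.31, and without WT replicate 3 at -0.98 and -0.99. Reg family genes, secreted lectins of acinar tissue and stressed islets, were higher in 6 of 6 with a median of 0.71. Their median was 0.22 with BACE2 and 1.11 without it. The averaged median was 0.02 without hIAPP/BACE2-KO replicate 2, whose mean of 10.1 stood against 5.47 to 7.43 in the other arrays with the transgene. It was 0.28 without WT replicate 3 and 1.14 without hIAPP/BACE2-KO replicate 3. Reg2 ran from 8.04 to 12.48 with and from 6.42 to 10.67 without the transgene, and its difference of 0.90 was 0.28 without WT replicate 3, 0.43 without hIAPP/BACE2-KO replicate 2 and 1.35 without hIAPP/BACE2-KO replicate 3.

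**Figure D5:**
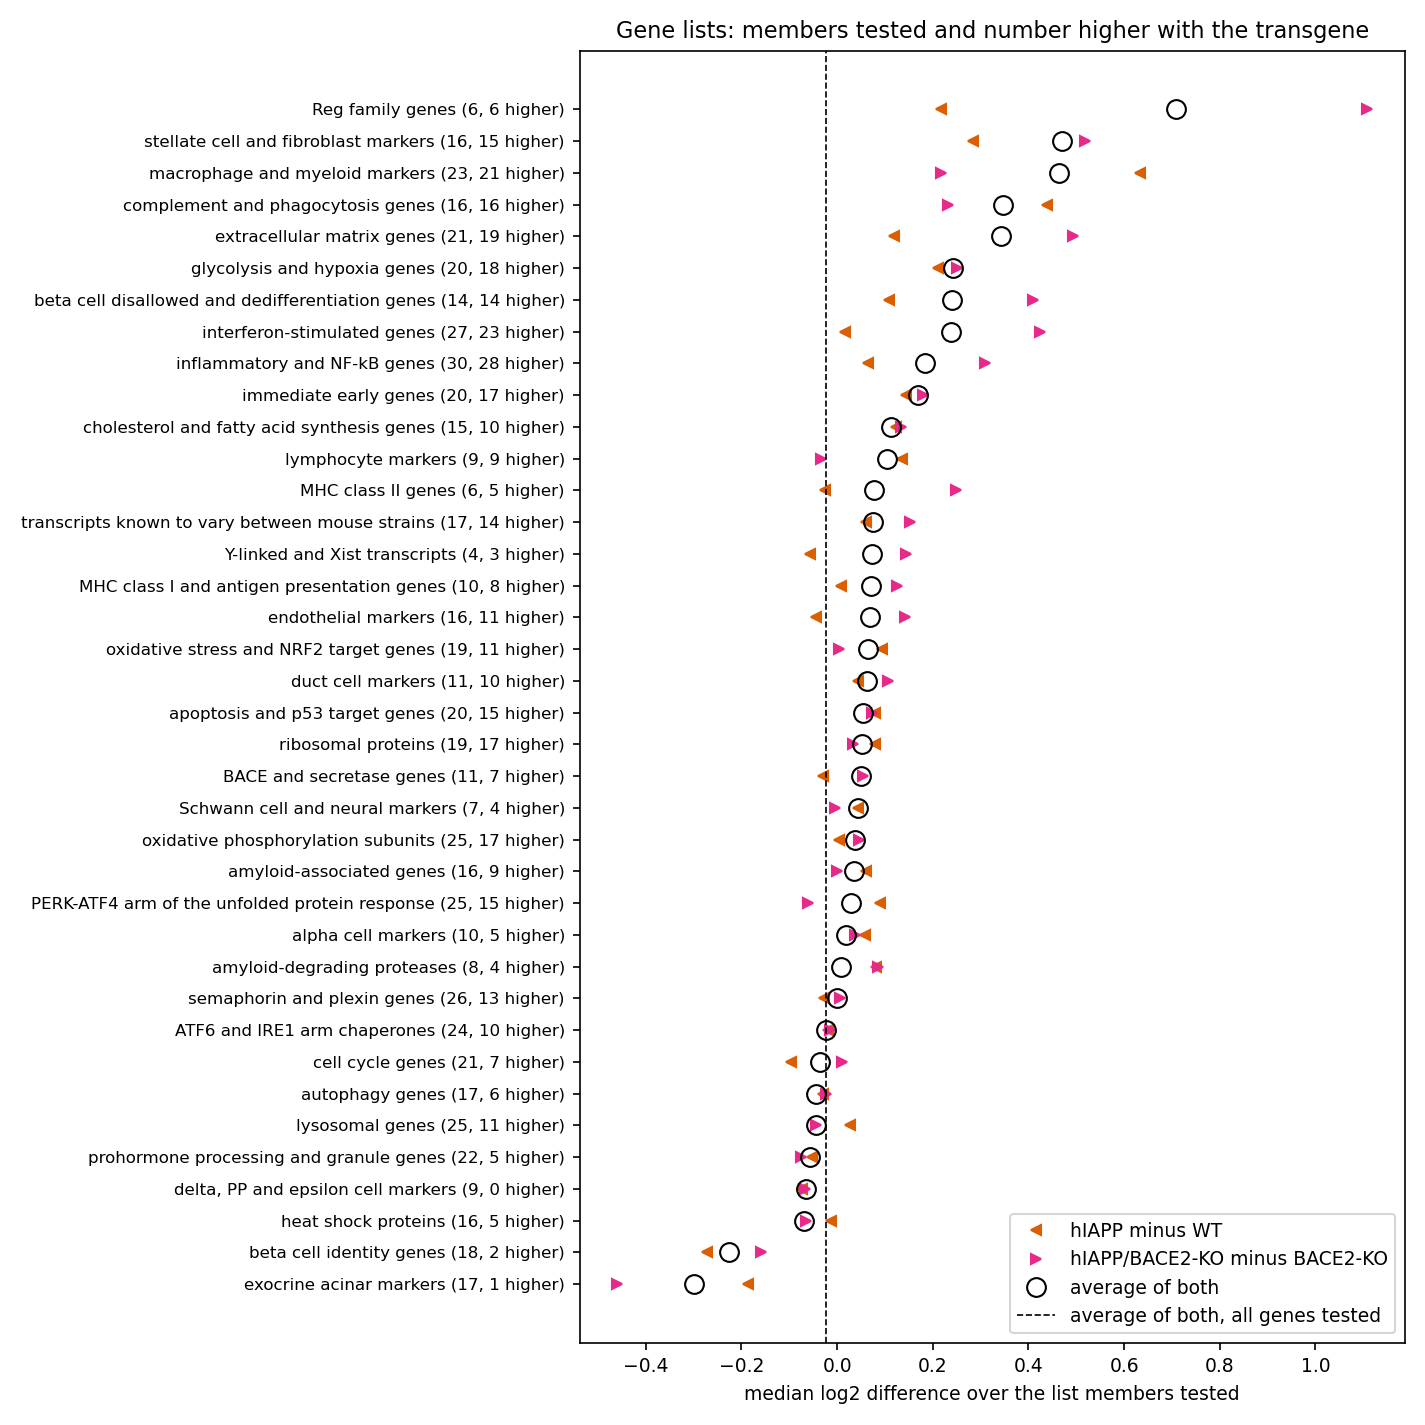
Median log2 difference of each of 38 gene lists (horizontal axis) for both simple differences and their average, with the number of tested members and of those higher; the dashed line is the averaged median of all genes, -0.02. Reg, stellate, macrophage, complement and matrix lists stand at 0.34 to 0.71, beta cell identity at -0.23 and acinar markers at -0.30.

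The islet label was read from the hormones. Ins2, an insulin gene, lay between 13.93 and 14.03 at the top of the scale of every array, where differences are not resolved, and Gcg, the glucagon gene, between 13.05 and 13.22. Their averaged differences were -0.02 and 0.04. Bace2 stood at -0.09 (SE 0.071, adjusted p = 0.741 by limma), with levels from 10.65 to 11.18, and its probes do not show the deletion. The transcript of the transgene was not analysed here, nor were Iapp and Ins1, so the labels for the transgene rest on the study's titles. The Y-linked and Xist list had a median of 0.07. Transcripts known to vary between mouse strains had a median of 0.08, with 14 of 17 higher, against 42.1% of all genes. Their median was 0.06 with BACE2 and 0.15 without it. Of them 1 (5.88%, against 7.59% of all genes) had an unadjusted p under 0.05. It was Entpd4, at 0.32 from simple differences of -0.01 with BACE2 and 0.66 without it. Whether genetic background has a part in these values was not tested.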

How the data were processed

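Affymetrix arrays of islet RNA from 12 samples were used. The authors deposited log2 levels made with affy and RMA, per the submitters' processing notes; the sources used here give no version or genome build. Array medians were 4.22 to 4.35. Of 45141 probe sets, 28898 had 1 symbol, 551 several and 15692 were not listed in the platform annotation. The probe set with the highest mean stood for a gene, and genes under the 25th percentile (3.43) were left out. A mean per group was fitted on all 12 arrays with limma 3.58.1 in R 4.3.3 (eBayes with a trend), tested on simulated data, two-sided, Benjamini-Hochberg adjusted. Array data hold no depth; the number of arrays limits precision.

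Genes were named by a rule: Bace2, Ins2, Gcg, Sema5a, Snhg18, called genes, the 20 smallest p, 5 genes alike with and without BACE2 and up to 4 members of a list. Other named genes, the neighbours of Sema5a, further list members and those differing by more than 1, were picked after their values were seen. The gene lists, the comparison and the rule were chosen with earlier results of these data known. Alternatives were filters, probe set choice, scaling, variance models, an additive fit, fits of 2 groups, the replicate block, array weights, covariates, the threshold, each array left out and, chosen after seeing the data, every probe set on its own. Plots used matplotlib 3.10.9.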

Additional observations from a re-analysis of the deposited data

Results flagged for a closer look

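The transgene difference of Sema5a without BACE2 minus that with BACE2 was -5.11 (SE 0.448, adjusted p = 0.000722 by limma), a difference between both states of BACE2 that the average does not show. A probe set without a gene name here lay outside the genes tested. It read 8.07, 6.79 and 6.07 in the hIAPP arrays and 3.42 to 3.70 in WT, a difference of 3.45 (SE 0.389, adjusted p = 0.0047 over all probe sets by limma). The arrays without BACE2 read 3.12 to 4.09, with a difference of -0.05 between hIAPP/BACE2-KO and BACE2-KO. The averaged difference, 1.70, was not called (adjusted p = 0.221, limma) and describes neither simple difference.

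Single arrays stood apart from the other 5 of their arm in 24 of 288 arms examined for genes and lists. For independent arms of like arrays chance would give about 14.4. Each arm here joins groups with and without BACE2, the genes and lists share arrays and members, and many genes were named by their values. The 2 counts therefore cannot show an excess. In hIAPP/BACE2-KO replicate 2, Mfap5 (7.43), Bgn (9.18), Pmaip1 (5.89), Reg3g (8.19) and Sprr2a1 (9.85) were high, as were the means of the stellate cell (7.12) and extracellular matrix (7.49) lists. In BACE2-KO replicate 2, Fcgr3 was high (4.19), and Cxcl14 (3.66), the endothelial list (6.12) and the interferon-stimulated list (6.66) were low. BACE2-KO replicate 3 was high for Sema5a (4.79) and Pou3f4 (4.48). BACE2-KO replicate 1 was low for Ctss (7.88) and high for Ide (8.68). hIAPP/BACE2-KO replicate 1 was low for Xaf1 (7.06) and replicate 3 high for Pou3f4 (5.83). hIAPP replicate 1 was low in the endothelial list (6.42) and high in MHC class I genes (9.52), and hIAPP replicate 3 was high in lymphocyte markers (4.84). Among WT arrays, replicate 1 was low for Cyp51 (7.74), replicate 2 high for Laptm4b (10.64) and for amyloid-degrading proteases (7.81), and replicate 3 low for Reg2 (6.42).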

How the results depend on the processing

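The number of genes called in the averaged comparison was 1 under most alternatives. It was 0 when genes under the 50th percentile, Sema5a among them, were left out, 0 in the additive fit, 0 with macrophage markers as a covariate, and 2 with every probe set tested on its own, both of Sema5a. Leaving out arrays in turn gave 1 to 2 calls, with Snhg18 added without hIAPP replicate 3 and Lyz2 added without hIAPP/BACE2-KO replicate 1. The interaction had 1 call, 0 at the 50th percentile, and 2 with the robust variance model, with an adjusted p under 0.1 and with every probe set; leaving out arrays gave 1 to 2. hIAPP against WT had 2 calls, 1 at the 50th percentile, 1 with the macrophage covariate, 4 with every probe set and 1 to 3 with arrays left out. In a fit of its own 6 arrays the calls were Apoe, Lyz2 and Sema5a. hIAPP/BACE2-KO against BACE2-KO had 0 calls throughout. Sema5a kept its direction in all settings that tested it, at 1.20 as the mean of its probe sets and 2.02 to 2.31 with arrays left out.

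Ins2 stood at 0 after a further quantile normalization, and so had no direction there. Signs turned for Adgre1 (-0.14 to 0.0092 with arrays left out, the latter without BACE2-KO replicate 1) and Xaf1 (-0.25 as the mean of probe sets). With the macrophage covariate they turned for Reg3g (-0.27), Reg2 (-0.22), Reg3b (-0.71) and Sprr2a1 (-0.23). The cause was not tested. With the replicate number as a block the averaged comparison kept 1 call (Sema5a, adjusted p = 0.0332, limma), and the block changed no other count of calls. With the block 1204 genes (9.39%) had an unadjusted p under 0.05 (limma), against 973 (7.59%) without it. The main fit did not pair the arrays by number. Of 18 same-numbered pairs 10 correlated above 0.1 (range -0.129 to 0.372), and 8 of 12 arrays correlated best with an array of their own number. These values do not show that the arrays are unpaired, and what the numbers stand for was not tested. Precision is limited by 3 arrays per group, and levels near the bottom and top of the scale are not resolved.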

Other observations

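Beside Sema5a, Apoe, Lyz2, Trf and Il6, 7 genes had an averaged difference beyond 1 in either direction, and none was called (adjusted p from 0.644 to 0.829 by limma). These genes were chosen after their values were seen. The trypsinogens Prss3 and Prss1 stood at -1.85 and -1.67, and the kallikrein Klk1b5 at -1.35. Prss3 ran from 3.87 to 8.10 with the transgene and from 4.08 to 11.59 without it, and without WT replicate 1 Prss3 stood at -1.23, Prss1 at -1.09 and Klk1b5 at -0.83 (-0.88 without BACE2-KO replicate 1). Prss3 and Prss1 encode digestive enzymes, as the acinar markers do. The epidermal growth factor family ligand Ereg was higher at 1.16 (0.65 without hIAPP/BACE2-KO replicate 2), the chemokine Cxcl14 at 1.07 with simple differences of 0.16 and 1.99, the small proline-rich protein Sprr2a1 at 1.14 (0.28 without that array) and the secreted lectin Reg3b at 1.02 (from 0.27 without WT replicate 3 to 1.87 without hIAPP replicate 2 as single arrays were left out). The spread between arrays of a group was wide for several of them: the SE was 0.901 for Prss3 and 1.24 for Reg3b, against a median of 0.0996 over all genes.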
